A study of Homo sapiens with 21 samples.

Results

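Interferon-stimulated effector genes encode the proteins that carry out the antiviral state of a cell. A list of 44 of them, chosen by name with earlier results of these data known, was described in 786-O cells. All 44 were present among the 26809 genes summarised. Most were expressed without any interferon being named in the labels: 33 of the 44 averaged at least 10 TPM, the length-corrected transcript level, in the control libraries. After knockout of JMJD6, 8 of the 43 members that could be tested fell (18.6%) and 0 rose when the changes with both guides were averaged, against 7.07% of all tested genes lower and 6.93% higher. Without control library 3 the count was 2, BST2 and UBA7. All-gene calls in either direction then went from 1893 to 1107. The tetherin gene BST2 and UBA7, the activating enzyme of the ISG15 pathway, fell with each guide and in every alternative analysis of that average. MX1, MX2, OAS1, OAS2 and OAS3 were called with guide sg2 and not with guide sg4, a difference that the direct test of sg4 against sg2 did not call.

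786-O is an established human line of clear cell renal cell carcinoma, and JMJD6 is an oxygenase of the Jumonji family that uses 2-oxoglutarate. The 9 RNA-seq libraries comprised 3 with JMJD6 guide sg2, 3 with JMJD6 guide sg4 and 3 with a control guide, whose cells are labelled JMJD6 wild type; all had been infected to receive their guide. The treatment text of the labels describes transfection of siRNA, whereas titles and extraction text describe guides, so the groups follow the titles. The labels call the libraries triplicates and give neither separate cultures nor whether the knockout cells were a pool or a clone, so p-values measure the spread between these libraries.

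As background, type I and type III interferons bind cell-surface receptors, and the kinases JAK1 and TYK2 then phosphorylate STAT2. Together with IRF9 it acts in the complex ISGF3, which binds the interferon-stimulated response element in promoters. The effectors degrade or sequester viral RNA, modify proteins with ISG15, hold virions at the membrane or block translation. Many are also expressed at a basal level without added interferon.

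Promoter sequences of RefSeq (GRCh38.p14) were searched for the core of that element, which reads GAAA, 2 bases of any kind, then GAAA, on both strands, in windows from 250 bases before to 50 after each annotated start. A window was found for 35 of the 44 members, and 25 of the 35 (71.4%) held a match, against 4.38% of the 27305 genes with a window and 3.89% of the 10912 tested genes with a window. A pattern shorter by the last base (GAAA, 2 bases of any kind, then GAA), which every longer match contains, matched 27 of the 35 (77.1%), against 9.86% of all genes with a window. The genes of the list were chosen as interferon-inducible, and the matches describe these windows without showing that a factor binds there. Windows without the core were those of UBE2L6, HERC6, RIGI, OAS1, IFI16, SP100, CMPK2, SAMD9L, IFI35 and XAF1.

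The stretches below show the 250 bases before the start for 3 members that fell with the knockout (BST2, IFI44L and PARP14) and for ISG15, the third highest of the list, which was not called. Each is written 5′ to 3′ on the strand of its gene, with the matches in capitals. The BST2 stretch lies at chr19:17405631-17405880 on the minus strand, IFI44L at chr1:78620198-78620447, PARP14 at chr3:122680589-122680838 and ISG15 at chr1:1013247-1013496, these 3 on the plus strand.
BST2: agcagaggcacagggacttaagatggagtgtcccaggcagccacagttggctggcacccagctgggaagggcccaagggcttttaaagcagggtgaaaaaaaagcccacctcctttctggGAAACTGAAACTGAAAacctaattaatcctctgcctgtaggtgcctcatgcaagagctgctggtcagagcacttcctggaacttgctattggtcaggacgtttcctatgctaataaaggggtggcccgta
IFI44L: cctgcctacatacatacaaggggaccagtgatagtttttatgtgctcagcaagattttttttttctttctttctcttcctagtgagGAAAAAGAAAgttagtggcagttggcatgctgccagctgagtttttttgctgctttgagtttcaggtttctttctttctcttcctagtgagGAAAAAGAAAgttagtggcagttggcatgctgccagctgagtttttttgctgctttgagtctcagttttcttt
PARP14: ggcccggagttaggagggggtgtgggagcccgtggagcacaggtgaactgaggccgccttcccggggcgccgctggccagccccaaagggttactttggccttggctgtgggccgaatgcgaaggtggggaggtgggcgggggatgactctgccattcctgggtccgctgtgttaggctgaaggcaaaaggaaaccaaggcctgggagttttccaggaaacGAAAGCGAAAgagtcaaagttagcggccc
ISG15: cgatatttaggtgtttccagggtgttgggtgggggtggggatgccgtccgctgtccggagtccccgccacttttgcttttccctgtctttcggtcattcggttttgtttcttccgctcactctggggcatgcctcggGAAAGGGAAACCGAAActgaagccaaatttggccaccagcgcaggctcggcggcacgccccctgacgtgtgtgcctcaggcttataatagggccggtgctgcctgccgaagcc
With the start base as position 0, BST2 held 2 overlapping matches that begin at −130 and −124, and ISG15 held 2 overlapping matches that begin at −113 and −107. IFI44L held 2 separate copies that begin at −164 and −73, and PARP14 held 1 that begins at −29.

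PARP9 and DTX3L lie head to head and share 1 match, which both windows contain on opposite strands. It is shown with its flanks, on the plus strand of chr3:122564322-122564351, because PARP9 fell with the knockout and DTX3L was not called.
PARP9 and DTX3L: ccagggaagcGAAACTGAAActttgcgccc
Of the 8 members that fell over both guides, BST2, IFI44L, PARP14 and PARP9 had a match, SAMD9L had a window without one, and UBA7, TRIM22 and OAS2 had no window.

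**Figure D1:**
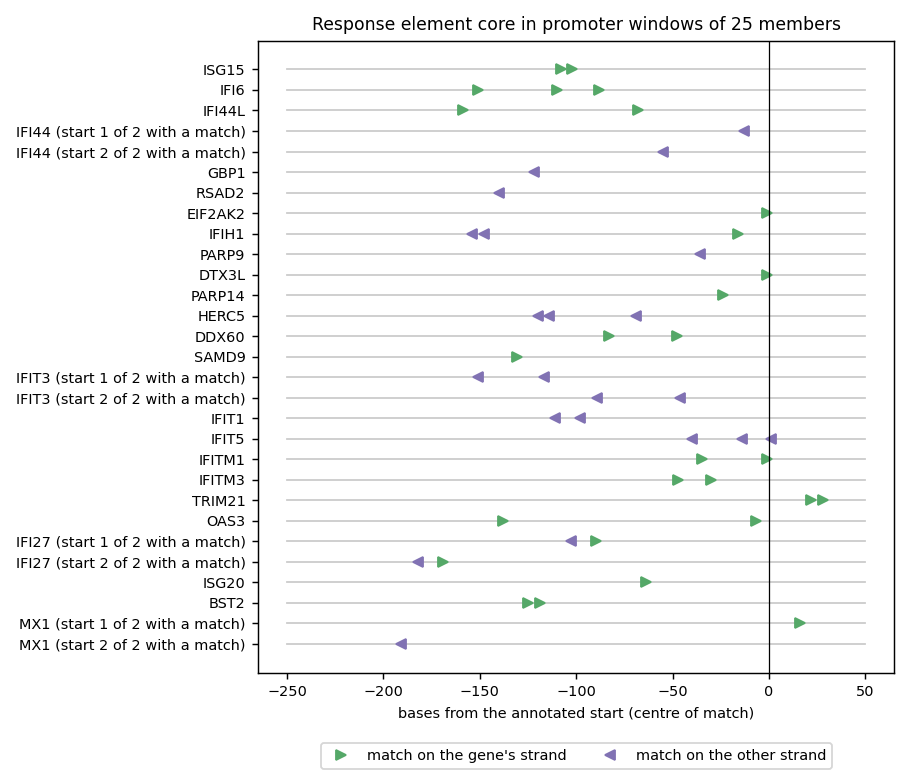
Positions of the response element core in the promoter windows of the 25 members with a match, in bases from the annotated start (x axis, centre of the match); each row is 1 annotated start, and triangles point right for the strand of the gene and left for the other strand. Most matches lie upstream of the start, and only those of TRIM21 and 1 start of MX1 lie wholly downstream.

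The check of the knockout was clear at the RNA level. JMJD6 had 13.4, 11.3 and 12.9 TPM with sg2, 8.69, 10.4 and 7.56 TPM with sg4, and 32.7, 32.6 and 36.8 TPM with the control guide. Over both guides its log2 fold change stood at −1.56 ± 0.088 (SE; edgeR, Benjamini-Hochberg adjusted p = 2.82e-14). Libraries held between 14224263 and 16300347 estimated counts. Of 9 renal carcinoma markers 8 were listed, with a summed level from 1530 to 1670 TPM. Their levels were unequal, from CA9 as the lowest (0.63 to 2.04 TPM) to KRT8 as the highest (605 to 689 TPM). Of 9 leukocyte markers 6 were at 0 in every library, among them CD3E and CLEC4C, and of 4 endothelial markers CDH5 was. The summed level did not exceed 1.62 TPM for the leukocyte and 0.16 TPM for the endothelial markers in any library. The 5 fibroblast markers summed to between 6.57 and 8.33 TPM with sg2, between 5.91 and 9.93 TPM with sg4, and between 9.39 and 34.7 TPM with the control guide, the highest value being control library 1. None of the 5 was at 0 in every library.

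Basal levels spanned more than 2 orders of magnitude. In the control mean, 5 members were at 100 TPM or more, 28 between 10 and 100 TPM, 11 between 1 and 10 TPM, and 0 below 1 TPM. The median member was at 22.6 TPM, against 20.1 TPM for all tested genes, and 26 of the 44 lay at or above the latter value. The summed level of the list was 2299, 2303 and 2349 TPM with sg2, 2343, 2560 and 2444 TPM with sg4, and 2636, 2598 and 2640 TPM with the control guide. Every knockout library was below every control library in this sum, of which BST2, IFITM3 and ISG15 made up between 51.9% and 55.4%. The median change in TPM over all tested genes was itself −0.063 on the log2 scale in knockout against control. The sum is not corrected for that shift.

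The 5 highest members in the controls were 2 membrane proteins, the modifier ISG15, its conjugating enzyme and a mitochondrial protein. BST2, which tethers budding virions to the cell surface, had 383, 415 and 389 TPM with sg2, 432, 457 and 439 TPM with sg4, and 536, 552 and 568 TPM with the control guide. All 6 knockout libraries were below all 3 controls, and the sg2 libraries were also below the sg4 libraries. IFITM3, which restricts the fusion of viruses with endosomes, had 518, 486 and 512 TPM with sg2, 513, 528 and 553 TPM with sg4, and 532, 502 and 516 TPM with the control guide, so that its groups overlapped. ISG15, a ubiquitin-like modifier, had 314, 329 and 318 TPM with sg2, 324, 431 and 358 TPM with sg4, and 373, 364 and 355 TPM with the control guide. The sg2 libraries of ISG15 were below every control, and sg4 library 2 was above every control. IFI6, a small protein linked to mitochondria and the endoplasmic reticulum, had 84.8, 87.9 and 84.5 TPM with sg2, 101, 153 and 132 TPM with sg4, and 128, 125 and 103 TPM with the control guide. UBE2L6, the conjugating enzyme for ISG15, had 98.1, 94.6 and 107 TPM with sg2, 91.6, 93.3 and 108 TPM with sg4, and 112, 107 and 103 TPM with the control guide. IFI6 was below every control in all 3 sg2 libraries and overlapped the controls with sg4, while the UBE2L6 groups overlapped throughout.

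At the lower end stood MX2, IFI27, CMPK2 and GBP2, with control means of 1.65, 2.39, 2.78 and 3.11 TPM. IFI27, a small hydrophobic protein widely used as a marker of interferon exposure, had 1, 0 and 2 estimated counts with sg2, 3, 2 and 8 with sg4, and 10, 6 and 2 with the control guide, and was the member too low to test. IFITM1 had 15, 4 and 15 counts with sg2, 14, 11 and 32 with sg4, and 21, 22 and 4 with the control guide, and was not called in any comparison. The fibroblast gene COL1A2 had its highest levels in control library 1 (7.49 TPM), sg4 library 3 (1.02 TPM) and control library 2 (0.529 TPM). These are also the 3 libraries with most IFI27 and IFITM1 counts. DCN had the same 3 highest libraries, and the other fibroblast markers did not. COL1A1 in control library 2 (1.31 TPM) was below sg2 library 1 (1.36 TPM). LUM in sg4 library 3 (6.21 TPM) was below every control, and PDGFRB was lowest in control library 1 (0.308 TPM). The part of fibroblast RNA in the IFI27 and IFITM1 counts was not tested.

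**Figure D2:**
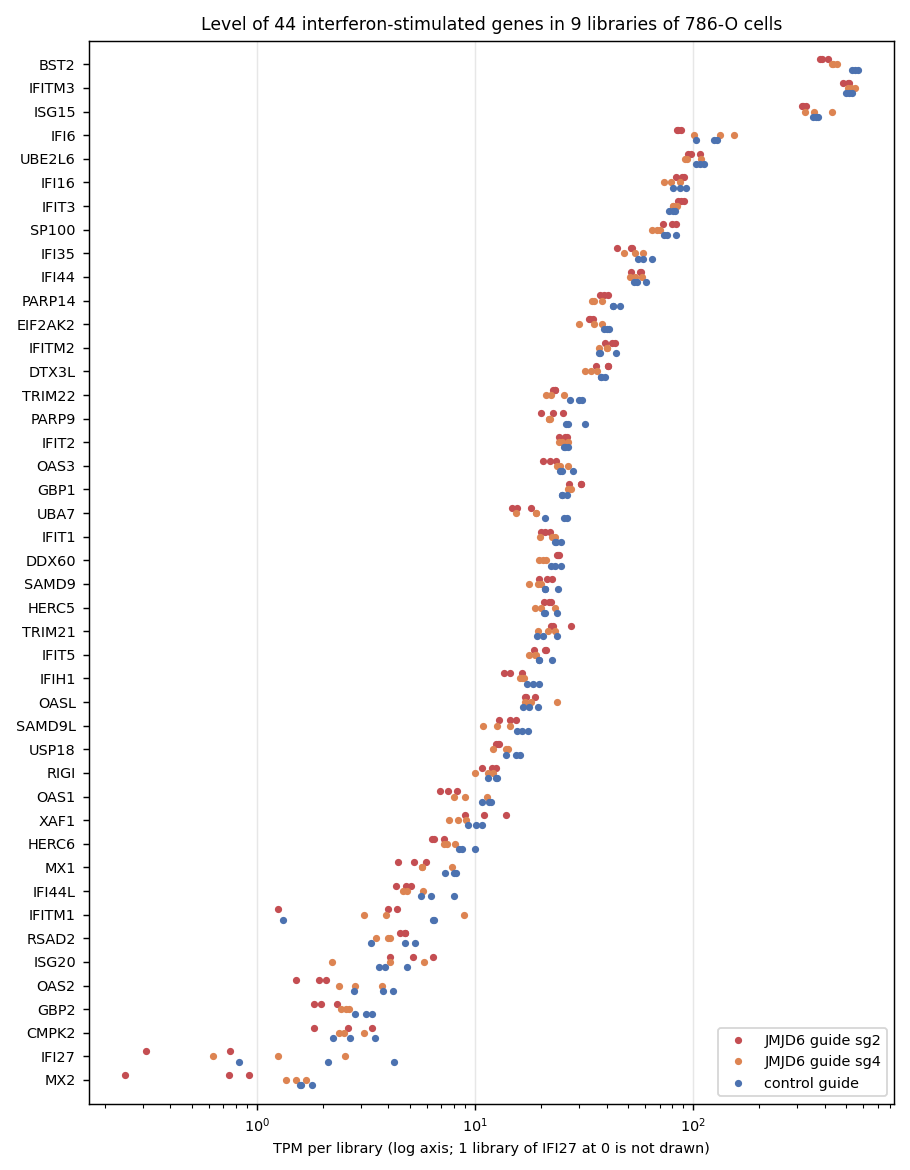
TPM in each of the 9 libraries (log axis, 1 point a library; sg2 red, sg4 orange, control blue) for all 44 members, ordered by the control mean from BST2 at 552 TPM to MX2 at 1.65 TPM. BST2 separates the knockout libraries from the controls at the top, and MX2 has its 3 sg2 points apart from the rest at the bottom.

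Differences between the groups were tested with edgeR's quasi-likelihood method over the 13530 genes that passed a count filter, and calls required a p under 0.05 after Benjamini-Hochberg adjustment over all of them. Values over both guides are the mean of the 2 guides' changes. Over both guides 8 of the 43 tested members (18.6%) fell, against 7.07% of all tested genes, and 0 rose, against 6.93%, so that 14.0% of all tested genes were called in either direction. At an unadjusted p under 0.05 there were 17 of the 43 members in either direction, against 3639 of the 13530 tested genes. The median log2 fold change of the members was −0.07, against −0.01 for all tested genes. With sg2 12 members (27.9%) fell and 0 rose, against 5.55% and 5.18% of all tested genes (10.7% in either direction), at a median of −0.09 for the members. With sg4 5 members (11.6%) fell and 0 rose, against 3.88% and 4.76% (8.64% in either direction), at a median of −0.07. Both guides are set against the same 3 control libraries, so their calls are not independent.

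BST2, UBA7 and PARP9 were called lower in the separate comparison of each guide, which is 6.98% of the tested members and 2.2% of all tested genes. The TPM of 10 members (23.3%) was lower in all 6 knockout libraries than in all 3 controls, as it was for 11.7% of all tested genes. GBP1 (2.33% of the members) was higher in all 6, against 3.45% of all tested genes. These comparisons of TPM, here and gene by gene below, are not corrected for the median log2 shift of −0.063 in knockout against control. The 35 tested members that were not called over both guides had log2 fold changes from −0.68 to 0.20, and 29 of them were within 0.2 of 0. In bulk RNA, a smaller share of cells expressing a gene and less RNA per cell cannot be told apart. Control library 3 bore most on the counts of members over both guides and with sg4. Without it 2 members, BST2 and UBA7, were called lower over both guides, 5 with sg2 and 1 with sg4. All-gene calls in either direction were then 1107, 991 and 667, against 1893, 1452 and 1169 with all libraries. Without control library 1 the members called lower were 5, 5 and 3, beside 1026, 765 and 658 all-gene calls. The count with sg2 was 5, 5 and 7 without sg2 library 1, 2 or 3, beside 836, 901 and 1305 all-gene calls. The count with sg4 was 2 and 3 without sg4 library 1 or 3, beside 1066 and 670 all-gene calls.

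**Figure D3:**
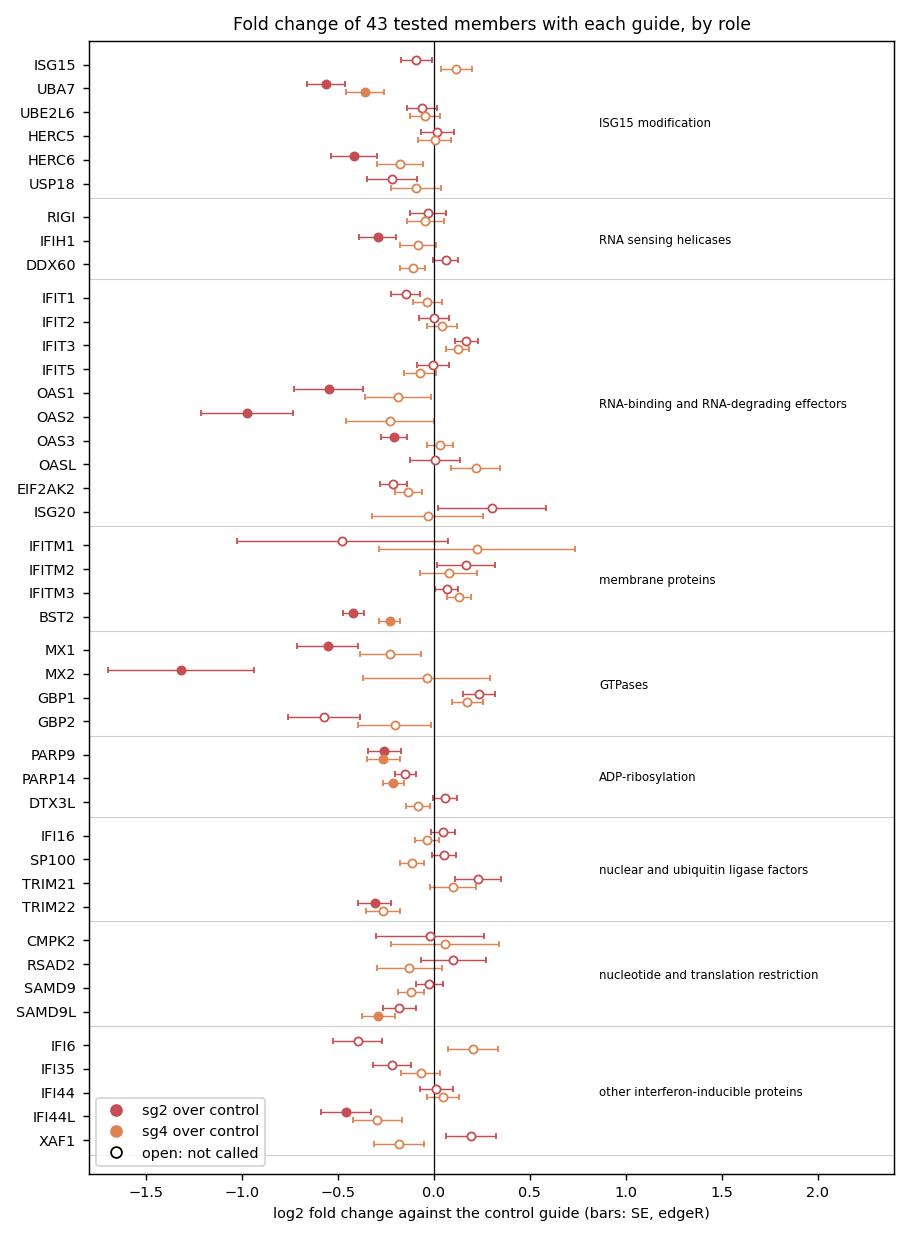
Log2 fold change of the 43 tested members with sg2 (red) and sg4 (orange) against the control guide, with bars of 1 SE from the edgeR fit, grouped by role; filled points are called and open points are not. Filled points all lie left of 0, and BST2, UBA7 and PARP9 are filled for both guides.

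In the ISG15 pathway, UBA7 fell and the modifier itself was not called. UBA7, the activating enzyme that charges ISG15, had 15.5, 14.7 and 18.0 TPM with sg2, 15.4, 18.9 and 19 TPM with sg4, and 25.5, 21.0 and 26.3 TPM with the control guide, without overlap between knockout and control. Its log2 fold change was −0.46 ± 0.089 over both guides (SE, edgeR adjusted p = 0.000616), −0.56 ± 0.10 with sg2 and −0.36 ± 0.10 with sg4. The call over both guides was kept in 18 of 18 alternative analyses (other normalisations, filters and tests, and each library left out), with adjusted p from 1.56e-06 to 0.012. The call with sg4 was lost without sg4 library 1, control library 1 or control library 3 (adjusted p from 0.106 to 0.17).

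HERC6, a HECT-type ubiquitin ligase related to the ISG15 ligase HERC5, had 6.45, 7.18 and 6.31 TPM with sg2, 8.05, 7.46 and 7.19 TPM with sg4, and 9.95, 8.45 and 8.74 TPM with the control guide. Here too all knockout libraries were below all controls. HERC6 fell with sg2 (−0.42 ± 0.12, edgeR adjusted p = 0.0249) and was not called over both guides (−0.30 ± 0.10, adjusted p = 0.0542, from 0.0414 to 0.328 over the alternatives). Without sg2 library 1, sg2 library 3 or control library 1 the sg2 call was lost, with adjusted p from 0.0845 to 0.157. The remaining genes of the pathway, ISG15, UBE2L6, the ligase HERC5 and the deconjugating protease USP18, were not called, with log2 fold changes over both guides between −0.16 for USP18 and 0.01 for ISG15.

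Of the 3 helicases that sense or bind viral RNA, IFIH1 fell with sg2. IFIH1, the sensor of long double-stranded RNA also called MDA5, had 13.5, 14.4 and 16.4 TPM with sg2, 16.3, 16.8 and 16.1 TPM with sg4, and 19.7, 17.2 and 18.5 TPM with the control guide. In TPM, not corrected for the shift of −0.063 over all tested genes, its knockout libraries were all below its controls. Unscaled counts of IFIH1 were 381, 359 and 419 with sg2, 458, 469 and 457 with sg4, and 507, 461 and 437 in the controls. With sg4 IFIH1 was at −0.08 ± 0.094 on the log2 scale and was not called. The log2 fold change with sg2 was −0.29 ± 0.096 (SE, edgeR adjusted p = 0.044), and it was lost in 10 of 19 alternatives, among them those without sg2 library 1, sg2 library 2 or any of the 3 controls (adjusted p from 0.0514 to 0.233). RIGI, the sensor of short triphosphorylated RNA, and DDX60 were not called in any comparison, with changes of −0.04 ± 0.083 and −0.03 ± 0.057 over both guides.

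Among the effectors that bind or degrade RNA, OAS1, OAS2 and OAS3 were lower with sg2, and OASL and the IFIT genes were not called. OAS1, OAS2 and OAS3 are neighbouring genes whose enzymes make 2′-5′ oligoadenylates, the activators of RNase L. OAS2 had 1.93, 1.51 and 2.07 TPM with sg2, 2.38, 3.74 and 2.8 TPM with sg4, and 3.78, 2.78 and 4.21 TPM with the control guide. All sg2 libraries of OAS2 were below all others, whereas sg4 overlapped the controls. Its log2 fold change was −0.60 ± 0.20 over both guides (SE, edgeR adjusted p = 0.0387), −0.97 ± 0.24 with sg2 (adjusted p = 0.00759) and −0.23 ± 0.23 with sg4, which was not called. These values rest on 31 to 91 estimated counts a library. The sg2 call of OAS2 was kept in 19 of 19 alternatives (adjusted p from 0.00134 to 0.048). Its call over both guides was lost in 10 of 18, including those without control library 1, control library 3, sg2 library 1, sg2 library 2, sg4 library 1 or sg4 library 3 (adjusted p from 0.0573 to 0.233).

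OAS1 had 7.51, 6.9 and 8.26 TPM with sg2, 9.0, 11.3 and 7.97 TPM with sg4, and 11.6, 11.8 and 10.7 TPM with the control guide. OAS3 had 23.4, 20.4 and 22.0 TPM with sg2, 24.5, 26.7 and 23.6 TPM with sg4, and 24.5, 25.1 and 28.1 TPM with the control guide. In both genes sg2 was below every control and sg4 overlapped the controls. With sg2 OAS1 fell by 0.55 ± 0.18 on the log2 scale (SE, edgeR adjusted p = 0.0411) and OAS3 by 0.21 ± 0.069 (adjusted p = 0.0443). Each of these 2 calls was lost when any of the 6 sg2 and control libraries was left out, with adjusted p from 0.0505 to 0.137 for OAS1 and from 0.0524 to 0.19 for OAS3. OAS1 was not called over both guides (−0.37 ± 0.15, adjusted p = 0.0991, from 0.0355 to 0.263 over the alternatives).

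EIF2AK2 encodes PKR, the kinase that halts translation on double-stranded RNA. Its level lay between 29.8 and 38.0 TPM in the knockout libraries and between 38.8 and 40.9 TPM in the controls. There was no overlap on this scale, which is not corrected for the shift of −0.063 over all tested genes. Unscaled counts of EIF2AK2 were 1118, 939 and 982 with sg2, 1127, 1210 and 969 with sg4, and 1139, 1232 and 1103 in the controls. Its log2 fold change of −0.17 ± 0.062 over both guides was not called (edgeR adjusted p = 0.0573, from 0.015 to 0.183 over the alternatives). With sg2 EIF2AK2 was at −0.21 ± 0.072 (adjusted p = 0.0535) and was called in 7 of 19 alternatives, with 0.0253 as the lowest adjusted p.

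The IFIT genes encode proteins that bind viral RNA with foreign 5′ ends. IFIT3 had the highest level of the 4, with 85.1, 88.0 and 90.2 TPM with sg2, 84.6, 80.7 and 81.1 TPM with sg4, and 77.1, 82.1 and 80.8 TPM with the control guide. The sg2 libraries were above all controls and the sg4 libraries overlapped them. IFIT3 was not called at 0.15 ± 0.051 over both guides (edgeR adjusted p = 0.0543, from 0.0186 to 0.254 over the alternatives), and it was called higher under the length correction. IFIT1, IFIT2 and IFIT5 lay between −0.09 and 0.02 over both guides and were not called, nor were OASL (0.11 ± 0.11) and the exonuclease gene ISG20 (0.14 ± 0.25). The IFIT and OAS families have similar sequences, and how shared reads were divided among them rests on the deposited estimates.

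Of the 4 membrane proteins BST2 fell and the 3 IFITM genes were not called. The log2 fold change of BST2 was −0.33 ± 0.047 over both guides (SE, edgeR adjusted p = 1.38e-05), −0.42 ± 0.055 with sg2 (adjusted p = 4.2e-06) and −0.23 ± 0.055 with sg4 (adjusted p = 0.00666). Over both guides this was a decrease of 20.2%, and the call was kept in 18 of 18 alternatives with adjusted p from 8.43e-09 to 0.000398. Its calls with each guide were also kept in 19 of 19. IFITM3 (0.10 ± 0.054), IFITM2 (0.12 ± 0.13) and IFITM1 (−0.13 ± 0.46) are near-identical in part, and their reads can be exchanged.

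The antiviral GTPases showed the largest fold change of the list in a single guide. MX2, which blocks the nuclear entry of retroviruses, had 0.746, 0.248 and 0.919 TPM with sg2, 1.67, 1.51 and 1.35 TPM with sg4, and 1.59, 1.57 and 1.78 TPM with the control guide. The sg2 libraries were below all others and the sg4 libraries overlapped the controls. This corresponds to 17, 5 and 19 estimated counts with sg2, 38, 34 and 31 with sg4, and 33, 34 and 34 with the control guide. MX2 fell with sg2 (log2 fold change −1.32 ± 0.38, SE, edgeR adjusted p = 0.0206) and was at −0.04 ± 0.33 with sg4. The call was lost without sg2 library 2, control library 1 or control library 3 (adjusted p from 0.0552 to 0.127), and without sg2 library 2 the change was −0.96.

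MX1, which inhibits influenza and other viruses in the cytoplasm, had 5.24, 4.43 and 5.95 TPM with sg2, 5.68, 5.7 and 7.85 TPM with sg4, and 8.12, 7.3 and 7.96 TPM with the control guide. Only sg4 library 3 reached the range of the controls. MX1 fell with sg2 (−0.55 ± 0.16, edgeR adjusted p = 0.0253). That call was lost without sg2 library 1, sg2 library 2, control library 1 or control library 3 (adjusted p from 0.0526 to 0.125). Over both guides MX1 was not called (−0.39 ± 0.14, adjusted p = 0.0547, from 0.0251 to 0.231 over the alternatives).

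GBP1 and GBP2, guanylate-binding proteins that act on intracellular pathogens and are strongly induced by interferon gamma, lay on opposite sides of the controls. GBP1 had 26.8, 30.5 and 30.5 TPM with sg2, 27.0, 27.6 and 26.6 TPM with sg4, and 24.9, 26.3 and 25.1 TPM with the control guide. GBP2 had 2.32, 1.83 and 1.96 TPM with sg2, 2.63, 2.56 and 2.43 TPM with sg4, and 3.15, 2.82 and 3.35 TPM with the control guide. In each gene the knockout libraries did not overlap the controls, above them in GBP1 and below them in GBP2. Neither was called over both guides: GBP1 was at 0.20 ± 0.072 (edgeR adjusted p = 0.0525, from 0.0233 to 0.314 over the alternatives) and GBP2 at −0.39 ± 0.16 (adjusted p = 0.118). With sg2 GBP2 had an adjusted p of 0.0535, and of 0.0479 with the stricter count filter.

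Both ADP-ribosyltransferases of the list fell, while the ubiquitin ligase that partners PARP9 was not called. PARP14, a mono-ADP-ribosyltransferase, had 39.0, 37.2 and 40.7 TPM with sg2, 38.2, 34.9 and 34.4 TPM with sg4, and 42.9, 42.9 and 46.3 TPM with the control guide. PARP9 had 25.3, 20.1 and 22.7 TPM with sg2, 21.9, 21.7 and 22.0 TPM with sg4, and 26.0, 26.6 and 32.0 TPM with the control guide. In both genes all knockout libraries were below all controls, and control library 3 was the highest library. The log2 fold changes over both guides were −0.18 ± 0.047 for PARP14 (SE, edgeR adjusted p = 0.00912) and −0.26 ± 0.072 for PARP9 (adjusted p = 0.0137). Without control library 3 they were −0.16 (adjusted p = 0.0642) and −0.19 (adjusted p = 0.151), and neither was called; over the 18 alternatives adjusted p ran from 0.00473 to 0.145 and from 0.00457 to 0.157.

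By guide, PARP9 was at −0.26 ± 0.084 with sg2 (edgeR adjusted p = 0.0432) and −0.26 ± 0.084 with sg4 (adjusted p = 0.0443). The sg2 call was lost in 11 of 19 alternatives, including those without sg2 library 2, sg2 library 3, sg4 library 2, control library 2 or control library 3 (adjusted p from 0.0513 to 0.242). The sg4 call was lost in 12, including those without sg2 library 1, any sg4 library, control library 2 or control library 3 (adjusted p from 0.0536 to 0.242). PARP14 was called with sg4 (−0.21 ± 0.055, adjusted p = 0.013) and not with sg2 (−0.15 ± 0.055, adjusted p = 0.077). Its sg4 call was lost without sg4 library 3 or control library 3 (adjusted p from 0.0583 to 0.0629), and also under the length correction. DTX3L, whose start lies beside the response element shown with that of PARP9, had between 31.9 and 40.7 TPM in the knockout libraries and between 37.7 and 39.2 TPM in the controls. It was at −0.01 ± 0.053 over both guides, at 0.06 ± 0.062 with sg2 and at −0.08 ± 0.062 with sg4.

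Of the nuclear and ubiquitin ligase factors TRIM22 fell. TRIM22, a ubiquitin ligase that restricts several viruses, had 23.2, 23.3 and 22.8 TPM with sg2, 21.1, 22.3 and 25.5 TPM with sg4, and 29.9, 27.1 and 31.0 TPM with the control guide, with no overlap of knockout and control. Its log2 fold change was −0.29 ± 0.076 over both guides (SE, edgeR adjusted p = 0.00967) and −0.31 ± 0.088 with sg2 (adjusted p = 0.0206). With sg4 it was −0.27 ± 0.088 and just missed the threshold (adjusted p = 0.0545, from 0.0198 to 0.259 over the alternatives). The call over both guides was lost without control library 1 or control library 3 (adjusted p from 0.0543 to 0.0645), and that with sg2 also without sg2 library 1 or sg2 library 3 (adjusted p from 0.0567 to 0.0863). IFI16, a DNA sensor, SP100, a component of nuclear bodies, and TRIM21, an antibody receptor in the cytosol, were not called, with changes of 0.004 ± 0.054, −0.03 ± 0.053 and 0.16 ± 0.10 over both guides.

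Among the genes that limit nucleotides or translation, SAMD9L fell and its neighbour and paralogue SAMD9 was not called. SAMD9L had 15.3, 12.9 and 14.5 TPM with sg2, 12.6, 14.5 and 10.9 TPM with sg4, and 16.3, 15.6 and 17.5 TPM with the control guide, so that every knockout library was below every control by a narrow margin. The log2 fold change was −0.23 ± 0.073 over both guides (SE, edgeR adjusted p = 0.0294), −0.29 ± 0.086 with sg4 (adjusted p = 0.0299) and −0.18 ± 0.085 with sg2, which was not called. The call over both guides was lost in 11 of 18 alternatives, among them those without any of the controls, sg2 library 2, sg4 library 1 or sg4 library 3 (adjusted p from 0.0505 to 0.123). That with sg4 was lost without sg4 library 1, sg4 library 3, control library 1 or control library 3 (adjusted p from 0.086 to 0.197). The sg4 call was also lost under the length correction. SAMD9 (−0.07 ± 0.059), RSAD2, which encodes viperin (−0.01 ± 0.15), and CMPK2 (0.02 ± 0.24) were not called over both guides, although RSAD2 and CMPK2 had only 30 to 133 estimated counts a library.

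The last group holds inducible proteins with less defined functions, of which IFI44L fell. IFI44L had 4.81, 4.31 and 5.05 TPM with sg2, 4.87, 5.76 and 4.64 TPM with sg4, and 6.24, 5.64 and 8.03 TPM with the control guide. Control library 3 stood highest, and sg4 library 2 was above control library 2. The log2 fold change was −0.38 ± 0.11 over both guides (SE, edgeR adjusted p = 0.0183) and −0.46 ± 0.13 with sg2 (adjusted p = 0.0177). With sg4 it was −0.29 ± 0.13 and not called. Without control library 3 the change over both guides was −0.24 and not called (adjusted p = 0.245, with 0.00729 to 0.245 over the alternatives). The sg2 call was lost without sg2 library 1, sg2 library 2 or control library 3 (adjusted p from 0.0573 to 0.157). Its neighbour IFI44, at 0.03 ± 0.074, IFI35, at −0.14 ± 0.088, and the apoptosis-linked XAF1, at 0.01 ± 0.11, were not called.

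The members include 11 runs of neighbouring genes, which hold 24 of the 44. Over both guides at most 1 member of a run was called: IFI44L beside IFI44, OAS2 beside OAS1 and OAS3, PARP9 beside DTX3L, and SAMD9L beside SAMD9. With sg2 all 3 OAS genes of a run and both MX genes were called.

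**Figure D4:**
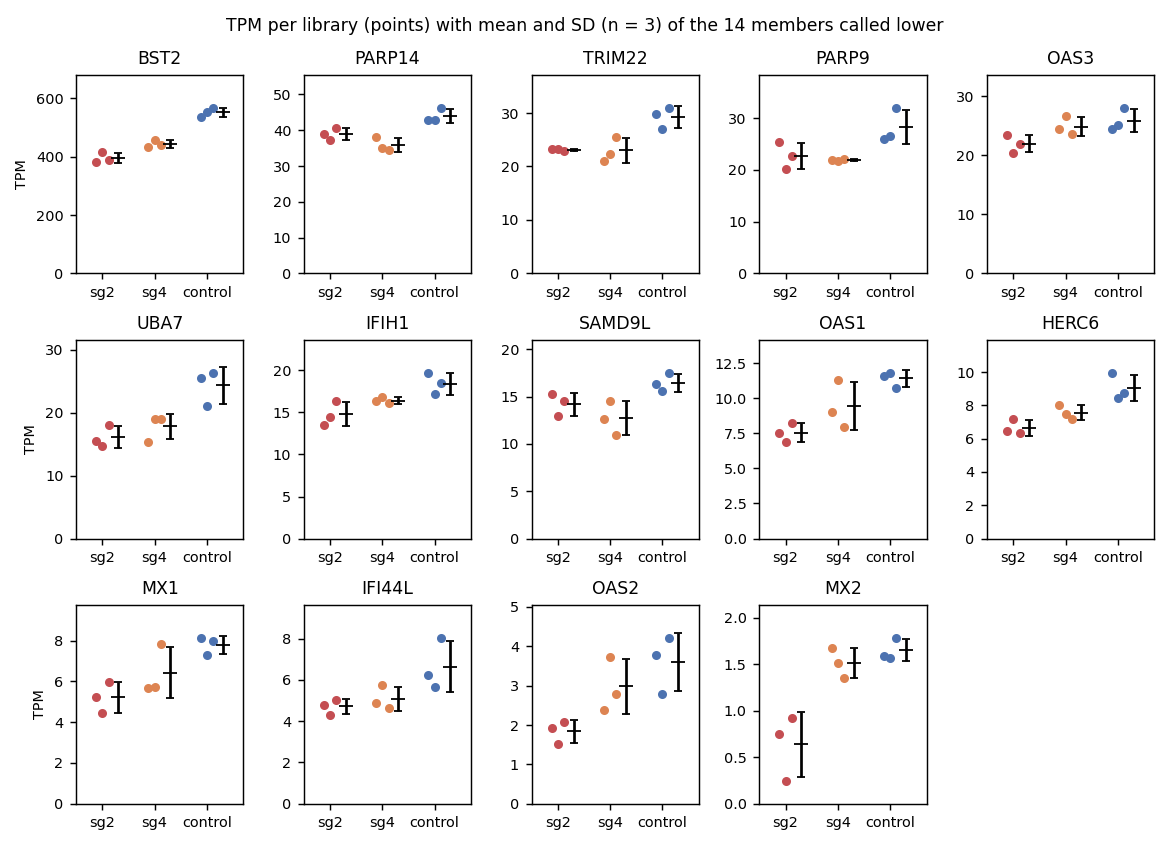
TPM in each library (points) with the mean and SD of the 3 libraries (bars) for the 14 members called lower in at least 1 comparison, with sg2, sg4 and control from left to right in each panel and all axes starting at 0. In TPM, BST2, PARP14, TRIM22, PARP9, UBA7, IFIH1, SAMD9L and HERC6 have no overlap between knockout and control. Over all tested genes, TPM was lower in all 6 knockout libraries for 11.7% and higher in all 6 for 3.45%. The TPM values are not corrected for the median log2 shift of −0.063 in knockout against control. In OAS2 and MX2 the sg2 points alone lie apart.

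Whether the guides differ was asked by testing sg4 against sg2 directly. Of the 43 members 0 were called (edgeR), against 0.037% of all tested genes higher and 0.0148% lower (0.0517% in either direction). In the same test 11 of the 43 had an unadjusted p under 0.05, against 1336 of the 13530 tested genes. DESeq2 also called 0 members. The calls with sg2 and not with sg4 of MX1, MX2, OAS1, OAS2 and OAS3 are therefore not shown to differ between the guides. The 4 largest differences in size, as log2 fold changes of sg4 over sg2 with SE, were 1.28 ± 0.38 for MX2 (adjusted p = 0.239), 0.75 ± 0.24 for OAS2 (adjusted p = 0.295), 0.70 ± 0.54 for the thinly counted IFITM1 (adjusted p = 0.688) and 0.60 ± 0.13 for IFI6 (adjusted p = 0.164). IFI6 was called higher with sg4 when low counts were not filtered, under the length correction, or without sg4 library 1 (adjusted p from 1.19e-06 to 0.917 over the alternatives). Against the control, IFI6 was at −0.40 ± 0.13 with sg2 (adjusted p = 0.0677, called in 10 of 19 alternatives) and at 0.20 ± 0.13 with sg4 (adjusted p = 0.378, called higher without sg4 library 1 at 0.0192). Without sg4 library 1, BST2 and ISG15 were also called higher with sg4 than with sg2 (adjusted p = 0.0475 and 0.0371, against 0.239 and 0.407 with all libraries).

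IFI6, ISG15 and BST2 have short transcripts, and short transcripts were not equally abundant in all libraries. For the tenth of genes with the shortest transcripts, the mean log2 deviation was 0.097 in sg4 library 2 and 0.096 in sg4 library 3, against −0.116 in control library 3. For the tenth with the longest it was −0.026 and −0.112 in sg4 libraries 2 and 3, against 0.083 in control library 3. Under the length correction IFI6 was called higher with sg4 than with sg2. With sg4 against the control, BST2 and UBA7 alone were then called lower. Of the members 8 have an effective length under 1 kb: ISG15, the 3 IFITM genes, BST2, IFI6, IFI27 and IFI35. Without sg4 libraries 2 and 3 and control library 3, sg4 is left with library 1 alone, which is assumed to vary like the other groups. IFI6 with sg4 against the control was then at −0.29 and ISG15 in sg4 against sg2 at −0.03, values that rest on that 1 library and were not called.

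The signalling genes upstream of the members were described with a list of 39, of which 30 could be tested. Over both guides 4 (13.3%) fell and 0 rose, against 7.07% and 6.93% of all tested genes, with a median log2 fold change of −0.02. The 8 interferon ligands were too low to test: IFNG and IFNK were listed at 0 in all 9 libraries, IFNB1 did not exceed 0.221 TPM and IFNE did not exceed 1.78 TPM. None of the 6 receptor genes was called.

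STAT2, the transactivating subunit of ISGF3, had 21.1, 19.7 and 23.7 TPM with sg2, 20.8, 23.7 and 22.9 TPM with sg4, and 35, 31.7 and 39.8 TPM with the control guide. Knockout and control did not overlap, and STAT2 fell by 0.63 ± 0.069 on the log2 scale (SE, edgeR adjusted p = 2.18e-07). TYK2, the kinase bound to the type I receptor, had 48.8, 46.6 and 46.8 TPM with sg2, 52.4, 49.2 and 46.0 TPM with sg4, and 62.6, 55.9 and 64.1 TPM with the control guide. It fell by 0.28 ± 0.051 (adjusted p = 0.000364), again without overlap. MAVS, the adaptor of RIGI and IFIH1, and ADAR, which edits double-stranded RNA, fell by 0.14 ± 0.047 and 0.13 ± 0.044 (adjusted p = 0.0447 and 0.0431). The call of MAVS was lost in 13 of 18 alternatives, among them those without any control library, sg2 library 1, sg2 library 2, sg4 library 1 or sg4 library 3 (adjusted p from 0.0643 to 0.177). That of ADAR was lost in 9, among them those without any control library, sg2 library 1, sg2 library 3 or sg4 library 3 (adjusted p from 0.0608 to 0.242).

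IRF9, the DNA-binding partner of STAT2 in ISGF3, was called with sg2. It fell with sg2 by 0.41 ± 0.13 on the log2 scale (edgeR adjusted p = 0.0332) and was at −0.31 ± 0.11 over both guides (adjusted p = 0.0515, from 0.0133 to 0.162 over the alternatives). The sg2 call was lost without sg2 library 2 or any of the 3 controls (adjusted p from 0.0669 to 0.242). SOCS3, an inhibitor of JAK signalling, rose with sg4 (0.35 ± 0.096, edgeR adjusted p = 0.0202), a call lost without sg4 library 2, control library 1 or control library 2 (adjusted p from 0.0711 to 0.115).

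**Figure D5:**
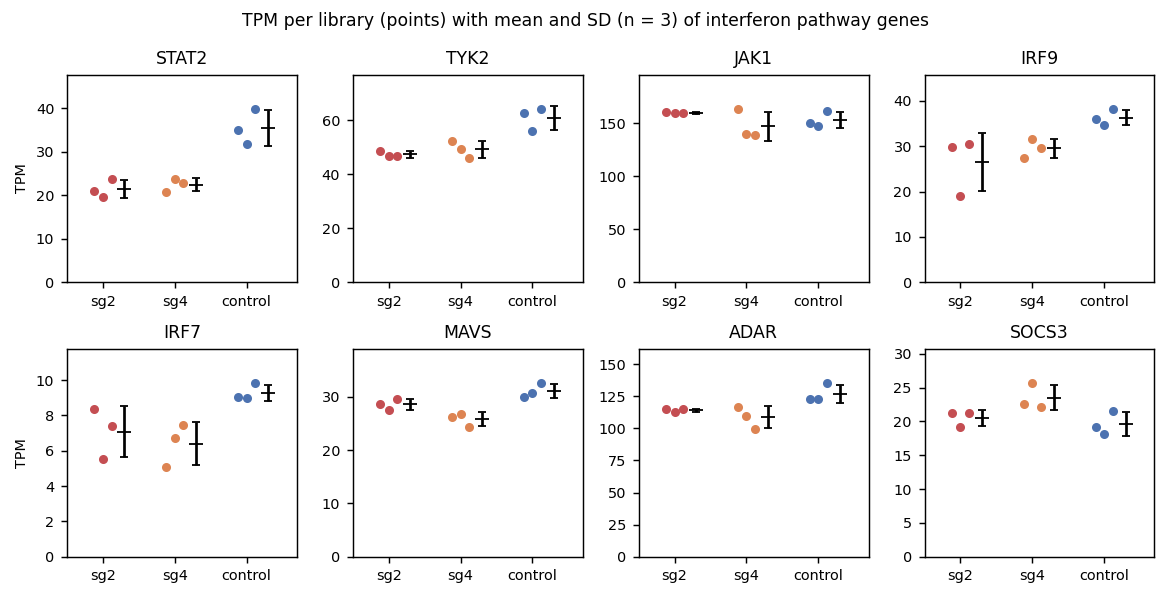
TPM in each library (points) with the mean and SD of the 3 libraries (bars) for 8 genes of interferon signalling, with sg2, sg4 and control from left to right and axes starting at 0. STAT2, TYK2, IRF9, IRF7, MAVS and ADAR lie lower in all 6 knockout libraries than in all 3 controls, as did 11.7% of all tested genes. Of these, IRF9 and IRF7 were not called over both guides. JAK1 and SOCS3 overlap between the groups.

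A further list of 37 interferon-inducible genes outside the 44, of which 31 could be tested, had 4 (12.9%) lower and 0 higher over both guides, against 7.07% and 6.93% of all tested genes, with a median of −0.07. SHFL, which blocks programmed ribosomal frameshifting, fell by 0.41 ± 0.093 on the log2 scale (SE, edgeR adjusted p = 0.00273). RNF213, a large ubiquitin ligase, fell by 0.32 ± 0.080 (adjusted p = 0.0217), APOL1, a lipid-binding protein that lyses trypanosomes, by 0.22 ± 0.041 (adjusted p = 0.000346), and LGALS3BP, a secreted glycoprotein, by 0.13 ± 0.041 (adjusted p = 0.0305). The calls of SHFL and APOL1 were kept in 18 of 18 alternatives. RNF213 lost its call without sg4 library 1 or control library 3 (adjusted p = 0.0845 and 0.0841), and LGALS3BP without sg2 library 1, sg4 library 1, control library 1 or control library 3 (adjusted p from 0.0546 to 0.158). The other 27 tested genes of this list, among them the proteasome gene PSMB9 and the peptide transporter gene TAP1, were not called.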

How the data were processed

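The authors deposited 1 Salmon table per RNA library, which per the file headers lists RefSeq transcripts with their effective length, estimated count and TPM. Per the file headers, TPM values are corrected for effective length and for library size. All deposited counts were whole numbers. The submitters' processing notes name cutadapt 1.12, STAR 2.5.2b, Salmon and DESeq2 without their order. Strand setting and annotation are not given in the sources used here.

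Counts and TPM were summed per gene: 58031 of 60422 accessions (96.04%) matched the RefSeq table of GRCh38.p14, used for names, and the rest held 1.326% to 1.647% of the counts of a library. Counts entered 1 robust quasi-likelihood fit in edgeR 4.0.16 (R 4.3.3, limma 3.58.1) with TMM and filterByExpr, over all 9 libraries, which kept 13530 genes. Contrasts were both guides, sg2 and sg4 against control, and sg4 against sg2, each tested 2-sided with Benjamini-Hochberg adjustment over all tested genes and calls under 0.05. A log2 fold change of both guides is the mean of the 2 guides. The fit was tested on simulated data first. Alternatives were another normalisation, DESeq2 1.42.0, other filters, a replicate block, a correction for transcript length, 2-group fits, limma on log2(TPM + 1) and log2(TPM + 0.1), and omitted libraries. The median log2 TPM of all tested genes was shifted by −0.063 in the knockout against the control libraries.

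The 44 members and all lists were chosen with earlier results of these data known. Every member is accounted for; values per library are given for called members, the 5 highest in the controls and those near 0, and members called under an alternative alone are named. Of each pathway list up to 4 called genes, the largest changes first, are named; IRF9, SOCS3, the receptors and ligands, PSMB9 and TAP1 were added after their values were seen. The deposited peak lists of the series were not used here, since their build, hg19, was not at hand. Some genes of the pathway and marker lists are counted but not reported here by name.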

Additional observations from a re-analysis of the deposited data

How the results depend on the processing

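The number of members called lower over both guides (8) stayed within 1.5 times under DESeq2's size factors (8), DESeq2 (8), no count filter (9), a filter of at least 50 counts in 3 libraries (10), the length correction (7), limma on log2(TPM + 1) (7) and on log2(TPM + 0.1) (6). The limma fits took TPM without correction for its shift. Their median log2 fold changes over all tested genes were −0.058 and −0.065 for both guides. The number of members called lower was 4 without control library 3 and sg4 libraries 2 and 3 together (BST2, IFI6, TRIM22 and UBA7). There sg4 against control gave 2 members lower in place of 5, from 1 sg4 library that is assumed to vary like the other groups. The length correction also gave 2 for sg4, and it called 2 members higher, GBP1 and IFIT3, over both guides and with sg2. In sg4 against sg2, 1 member (IFI6) was called higher without a count filter and 1 (IFI6) under the length correction. Leaving out 1 library at a time gave 2 to 10 members lower and 0 to 1 higher over both guides, 5 to 14 lower and 0 to 1 higher with sg2, 1 to 5 lower and 0 to 1 higher with sg4, and 0 to 3 higher and 0 lower in sg4 against sg2. Signs turned, in changes that were not called, without control library 3 and sg4 libraries 2 and 3 for IFI6 with sg4 (−0.29), for MX2 with sg4 (0.11) and for ISG15 in sg4 against sg2 (−0.026). MX2 with sg4 ranged from −0.084 to 0.022 with single libraries left out, above 0 without sg4 library 3 (0.022) or control library 3 (0.003). Apart from the omitted libraries, the cause of these differences was not tested.

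Over all 13530 genes, the 1893 calls over both guides became 1230 without the 3 libraries named above, 1026 without control library 1 and 1107 without control library 3. The 1452 calls with sg2 became 765 without control library 1, 836 and 901 without sg2 library 1 or 2, and 866 and 877 with limma on log2(TPM + 1) and log2(TPM + 0.1). The 1169 with sg4 became 435 without those 3 libraries, and 670, 658 and 667 without sg4 library 3, control library 1 or control library 3. The 7 in sg4 against sg2 became 20 with DESeq2, 74 without a filter, 12 with the length correction and 1 with either limma fit, and ranged from 0 to 110 with single libraries left out.

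Libraries with the same replicate number did not deviate together: the correlations of their deviations ran from −0.141 to 0.052 over 9 pairs, against −0.08 to 0.122 over 18 pairs with different numbers, so the numbers were taken as names only. With a replicate block 6 members were called lower over both guides, 8 with sg2 and 3 with sg4.

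Depth limits the members with few counts, MX2, IFI27, IFITM1, CMPK2 and OAS2, for which 3 libraries a group leave wide errors. The planned comparison of members with peaks, and its 2 alternatives, was not run.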
